A study of Mus musculus with 20 samples.

Results

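The hippocampus of PS19 mice was compared with that of wild-type (WT) mice in 10 libraries, 5 per genotype, of the 20 libraries in the series. The members were taken from the sample titles, PS191 to PS195 and WT1 to WT5. PS19 mice carry a transgene for mutant human tau under the mouse prion protein (Prnp) promoter, and WT mice carry none. All animals were male, 9 months old and labelled C57BL/6J. The remaining 10 libraries were labelled C3aR KO and PS19/C3aR KO, that is, with a knockout label for the complement receptor C3aR without and with the tau transgene, at the same age and sex. They entered the same fit and served for 1 further comparison of tau-transgenic with non-transgenic libraries. Polyadenylated RNA was sequenced, and the values are read counts per gene. Whether the 5 libraries of a genotype come from 5 animals is not in the labels, so the p-values speak only of spread among libraries, which may be technical.

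Tau binds and stabilises microtubules, the tracks along which kinesin motors carry cargo into axons and dendrites. In tauopathies tau detaches, becomes heavily phosphorylated and aggregates in neurons, synapses are lost, and microglia and astrocytes become reactive. The glial response is well known from this mouse, so the account below deals with the genes that fell and with gene families outside 5 fixed lists of glial, interferon and lysosomal markers, 369 tested genes in all.

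Gene counts ranged from 33914416 to 43044438 per library in these 10 libraries. Levels are given as CPM, counts scaled to a common library size, a scale on which genes of different length cannot be compared. The tissue label was checked on 6 markers of hippocampal neurons (Prox1 and Calb1 among them), all of which were read in every library. The knockout label was checked on C3ar1, the gene of C3aR. C3ar1 stood at 1.73 to 2.42 CPM in WT, 4.98 to 13.7 CPM in PS19, 14.1 to 17.98 CPM in the libraries labelled C3aR KO and 14.96 to 18.7 CPM in those labelled PS19/C3aR KO. Every library with a knockout label was above every WT library, which goes against the label, and counts per gene do not show which part of the transcript was read. PS19 minus WT uses the knockout-labelled libraries only for the filter on low counts, the scaling and the estimate of the spread. PS19 library 5 was closer to WT than the other PS19 libraries in the values that follow. Rn45s, a ribosomal RNA precursor, took 2.85 to 4.48% of the gene counts in WT, 0.873 to 1.77% in PS19 libraries 1 to 4 and 3.65% in PS19 library 5. The summed level of the microglial markers was 5878 to 6876 CPM in WT, 10487 to 11872 CPM in PS19 libraries 1 to 4 and 7709.9 CPM in library 5. All 158 microglial markers were tested and 132 of them rose. The sum of 20 pan-neuronal genes was 15260 to 16528 CPM in WT and 13832 to 15224 CPM in PS19. These 3 values differed between most WT and PS19 libraries, but the Rn45s share of PS19 library 5 lay within the WT range. Rn45s took 0.923 to 4.34% in the libraries labelled C3aR KO and 1.04 to 3.03% in those labelled PS19/C3aR KO. The part of the 3 values in the results below was not tested beyond the fits named beside them. The first is a fit with Rn45s as a covariate, the second a fit in which every library was scaled to its summed pan-neuronal counts.

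**Figure D1:**
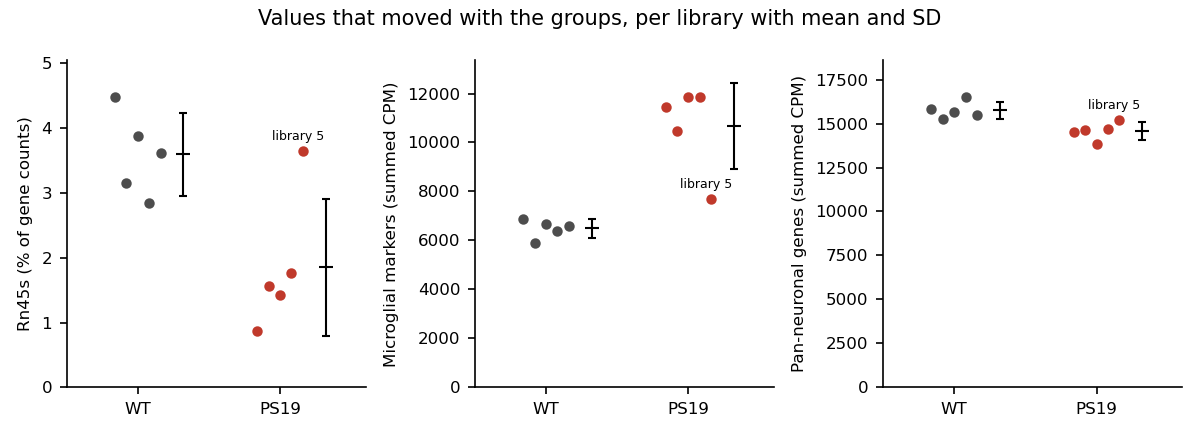
Rn45s share of gene counts (%), summed CPM of microglial markers and summed CPM of 20 pan-neuronal genes, with 1 point per library, 5 WT (grey) and 5 PS19 (red); bars give the mean and SD. PS19 library 5 lies at 3.65% Rn45s and 7709.9 CPM of microglial markers, between the WT libraries and the other PS19 libraries for the latter.

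The transgene was checked through the prion protein gene Prnp, since the promoter of this gene drives the transgene. Prnp rose from 888 ± 49.6 to 1885 ± 29.1 CPM (mean ± SD, n = 5 each), a log2 fold change of 1.09 (adjusted p = 8.42e-12 by edgeR, SE 0.044), where SE is the standard error of the log2 fold change. Mapt, the mouse tau gene, rose by 0.23 (SE 0.044) from 525 ± 27.8 to 618 ± 21.03 CPM. Reads of the human transgene cannot be told apart from mouse reads in these counts.

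Of 16657 tested genes, 1803 (10.8%) passed an adjusted p below 0.05 in PS19 minus WT. Of these, 1250 (7.5% of the tested genes) were higher and 553 (3.32%) were lower. For 988 genes (5.93%) the lowest PS19 library exceeded the highest WT library, and for 518 genes (3.11%) the highest PS19 library was below the lowest WT library. The falling genes changed by small amounts and were of higher level. Their median log2 fold change was -0.22, only 4 fell by more than 1 on the log2 scale, and their median mean log2 CPM was 6.63, against 4.22 for all tested genes. The rising genes had a median log2 fold change of 0.56, 330 of them rose by more than 1, and their median mean log2 CPM was 3.77. The falling genes also lay on longer genes, with a median genomic span of 33623 bases against 22698 bases for all tested genes and 21446 bases for the rising genes. Within groups the falling genes varied little, with a median coefficient of variation of 5.30% in WT and 6.51% in PS19. Over all tested genes it was 9.70% and 9.57%. Small changes pass the test more easily at high counts and low spread, so level and spread of the falling genes depend on the threshold. Of the rising genes, 990 stood on no glial marker list, with a median log2 fold change of 0.47.

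The balance between rising and falling genes depended on the scaling. Rising genes made up 69.3% of the calls here, 91.1% (1795 higher, 176 lower) with libraries scaled to their total gene counts, and 96.9% (2629 higher, 83 lower) with libraries scaled to the pan-neuronal genes, which moved the median of all genes to 0.11. With Rn45s as a covariate 374 genes were higher and 57 lower. Leaving out single libraries gave 269 to 725 falling genes. The count was 269 without WT library 4, 353 without WT library 3, 304, 299 and 309 without PS19 library 1, 3 or 4, and 725 without PS19 library 5.

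Promoter stretches of 2 rising genes and of 2 falling kinesin genes are printed to show where 2 searched motifs lie in them. Each promoter, taken as 250 bases before to 50 bases after the start of a RefSeq transcript (GRCm38.p6, the mm10 build), holds a searched motif on the gene's strand ahead of the start. The motif is in capitals and each stretch is written 5′ to 3′. The letters GAGGAAGT are a core recognised by PU.1, the lineage factor of myeloid cells, and were found upstream of Ptgs1 (cyclooxygenase 1) and of Bcl2a1b (an anti-apoptotic BCL2 relative), which rose.
Ptgs1: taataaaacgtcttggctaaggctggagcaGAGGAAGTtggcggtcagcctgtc
Bcl2a1b: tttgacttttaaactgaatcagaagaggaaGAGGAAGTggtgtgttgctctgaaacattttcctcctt
The letters TGACGTCA are the full cAMP response element (CRE) bound by CREB, and were found upstream of Kif5c and Klc1, which encode subunits of kinesin-1 and fell. This motif reads the same on both strands, and its share was no higher among falling genes than among all genes.
Kif5c: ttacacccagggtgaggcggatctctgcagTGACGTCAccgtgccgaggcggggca
Klc1: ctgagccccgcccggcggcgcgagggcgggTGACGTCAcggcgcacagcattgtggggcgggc
The stretches lie at chr2:36230372-36230425, chr9:89199095-89199162, chr2:49619230-49619285 and chr12:111758805-111758867, all on the plus strand, and the motifs begin 24, 148, 26 and 33 bases before the start. Searched on both strands, GAGGAAGT stood in 5.64% of the promoters of rising genes, 2.52% of those of falling genes and 2.84% of all 16432 promoters of 13047 tested genes. TGACGTCA stood in 2.52% of the promoters of falling genes, near the 2.74% of all promoters, and in 1.75% of those of rising genes. The interferon-stimulated response element (ISRE) stood in 6.43% of promoters of rising genes and 4.16% of those of rising genes that are no markers, against 2.97% of all and 2.86% of those of falling genes. The AP-1 site TGANTCA stood in 8.42, 3.7 and 5.46% of the promoters of rising, falling and all genes, the STAT site TTCNNNGAA in 8.02, 4.37 and 6.95%, the E-box CAGCTG in 19.7, 17.5 and 16.4%, and the antioxidant response element TGACNNNGC in 13.8, 11.3 and 14%. Matches overlap between motifs, and a match describes letters and not a bound site. These shares were not tested.

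Among the falling genes were 3 that encode subunits of a motor of axonal transport. Kif5a and Kif5c encode neuronal heavy chains of kinesin-1, the motor that walks toward the plus end of microtubules, and Klc1 encodes a light chain that links the motor to its cargo. Kif5a (chr10:127225695-127266348) stood at 3051, 2983, 2978, 2519 and 2738 CPM in WT libraries 1 to 5 and 1672, 1887, 2143, 2269 and 2020.0 CPM in PS19 libraries 1 to 5. Every PS19 library lay below every WT library, and the log2 fold change was -0.51 (adjusted p = 0.00261 by edgeR, SE 0.1). Kif5c (chr2:49619286-49774778) stood at 1086, 927, 1016, 1055 and 1050.0 CPM in WT libraries 1 to 5 and 812, 809.5, 849.9, 853 and 907 CPM in PS19 libraries 1 to 5. Here too the groups did not overlap, and the log2 fold change was -0.28 (adjusted p = 0.00166 by edgeR, SE 0.051). Klc1 fell by -0.16 (SE 0.044) from 601 ± 11.9 to 537 ± 9.98 CPM, and it was no longer called without WT library 4 (adjusted p of 0.0584) or PS19 library 3 (adjusted p of 0.0574). Kif5a and Kif5c kept their calls when libraries were scaled to the pan-neuronal genes, with -0.40 (adjusted p = 0.00759) and -0.17 (adjusted p = 0.0132), and with Rn45s as a covariate, with -0.53 (adjusted p = 0.0329) and -0.25 (adjusted p = 0.0391). Klc1 did not, with -0.05 (adjusted p = 0.436) and -0.16 (adjusted p = 0.111).

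Of 63 tested kinesin, dynein and dynactin genes 6 fell and 1 rose, where 3.32% of all genes fell and 7.5% rose. Both directions together gave 11.1% called, near the 10.8% of all genes. The median log2 fold change was -0.021, beside -0.0068 for all tested genes. Most members of the family were not called. The count of falling members was 2 without WT library 4 or PS19 library 3, 3 without PS19 library 1 or 4, 10 without PS19 library 5, and 2 both under the pan-neuronal scaling and with the Rn45s covariate. The riser was Kif13a, a motor of recycling endosomes, at 0.23 (SE 0.071), no longer called without WT library 2 (adjusted p of 0.0916) or WT library 3 (adjusted p of 0.0576) or WT library 4 (adjusted p of 0.102) or WT library 5 (adjusted p of 0.0897) or PS19 library 1 (adjusted p of 0.056) or PS19 library 3 (adjusted p of 0.109) or PS19 library 4 (adjusted p of 0.0852) or PS19 library 5 (adjusted p of 0.0714) or PS19/C3aR KO library 3 (adjusted p of 0.0514).

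**Figure D2:**
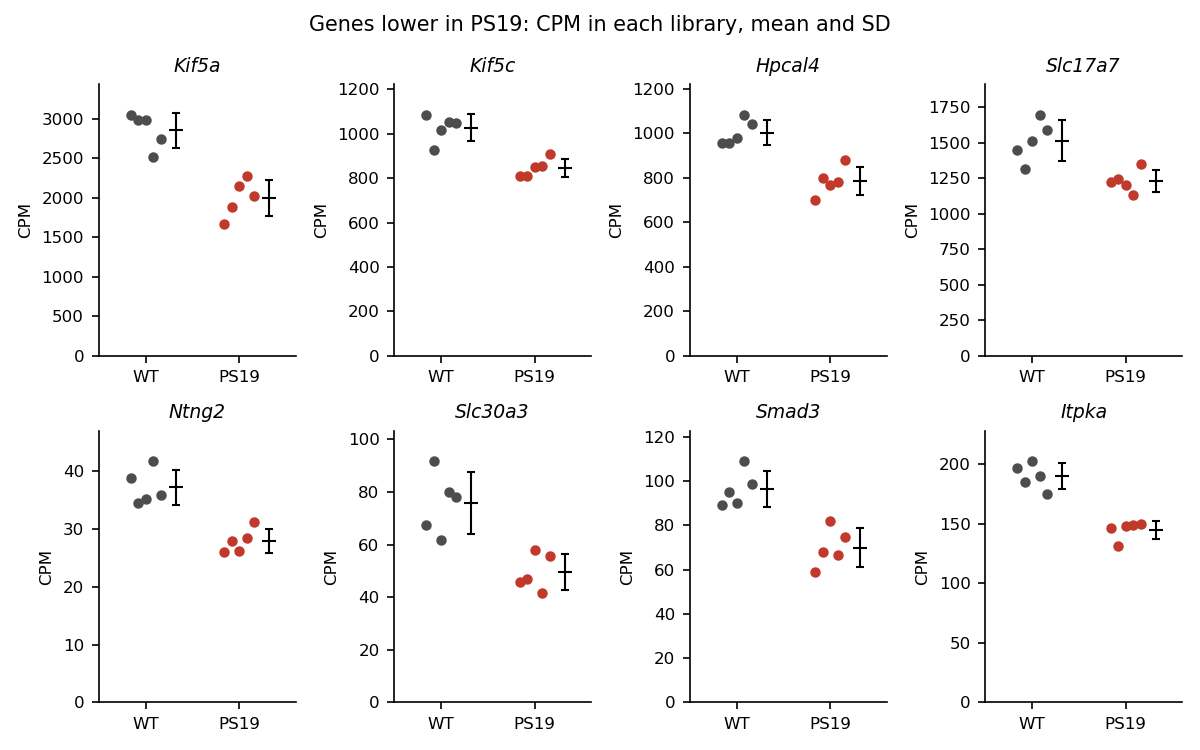
CPM of 8 genes called lower in PS19 minus WT, with 1 point per library (5 WT in grey, 5 PS19 in red) and bars for mean and SD; every axis starts at 0. Groups do not overlap for Kif5a, Kif5c, Hpcal4, Ntng2, Slc30a3, Smad3 and Itpka, and overlap for Slc17a7.

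General neuronal genes were slightly lower, most of them within the spread between libraries. Of all 16657 tested genes 8610 were negative and 8047 positive. Of 20 pan-neuronal genes 18 had a negative and 2 a positive log2 fold change, with a median of -0.12. As lower, 4 passed the test (20%, against 3.32% of all genes). The splicing factor and neuronal marker Rbfox3 (NeuN) fell by -0.19 (SE 0.048) from 293 ± 11.3 to 257 ± 14.2 CPM. CPM are shares of a library, so in bulk tissue fewer neurons, less RNA per neuron and more RNA from other cells cannot be told apart. The summed microglial markers stood at 5878 to 6876 CPM in WT and 7709.9 to 11872 CPM in PS19, and their part in this fall was not tested. Without WT library 1 or 4 or PS19 library 1 or 3 the count of called genes was 1, without WT library 2 or 3 or PS19 library 2 it was 2, and with the Rn45s covariate it was 0, where Rbfox3 had -0.20 (adjusted p = 0.0763). By edgeR 10 of the 20 genes were lower at an unadjusted p below 0.05. Several genes of the following paragraphs fell by more than this median. Of 97 named falling genes 34 kept a call after scaling to the pan-neuronal genes. The named genes were picked by low p or large fold change in this same comparison. Over all tested genes 83 were lower under that scaling, beside 553 in the main fit.

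Molecules that join pre- and postsynaptic membranes leaned downward. Of all 16657 tested genes 8610 were negative, and the median of the pan-neuronal genes was -0.12. Of 68 tested synaptic adhesion molecules 56 were negative, with a median of -0.13, and 12 fell past the threshold (17.6%, against 3.32% of all genes). No member rose by edgeR, DESeq2 or limma-voom, with 2 higher at an unadjusted p below 0.05. Ntng2 (netrin-G2, a membrane-anchored ligand on excitatory axons) stood at 38.8, 34.4, 35.2, 41.7 and 35.8 CPM in WT libraries 1 to 5 and 25.97, 27.9, 26.2, 28.5 and 31.2 CPM in PS19 libraries 1 to 5. The 2 groups did not overlap, the log2 fold change was -0.41 (adjusted p = 0.000315 by edgeR, SE 0.059), and this was the lowest p among the falling genes. Lrrtm4, a postsynaptic partner of heparan sulphate proteoglycans in the dentate gyrus, fell by -0.35 (SE 0.077) from 39.3 ± 3.30 to 30.8 ± 2.51 CPM. Lrrc4, the receptor of netrin-G2, fell by -0.20 (SE 0.041) from 120.3 ± 3.78 to 105 ± 4.87 CPM. The count of falling members was 7 without PS19 library 1 or 4 and reached 16 in another such fit, and it was 3 under the pan-neuronal scaling and 1 with the Rn45s covariate. Lrrc4 had -0.09 (adjusted p = 0.153) under the pan-neuronal scaling. With the covariate Ntng2 had -0.36 (adjusted p = 0.0139), Lrrtm4 -0.35 (adjusted p = 0.0607) and Lrrc4 -0.15 (adjusted p = 0.0946).

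Guidance and adhesion families beside these were mixed. Of 31 semaphorins, plexins and neuropilins 3 rose and 2 fell (16.1% called, against 10.8% of all genes). Only 1 fell without WT library 4 or PS19 library 3. Sema4f, a transmembrane semaphorin found at synapses, fell by -0.28 (SE 0.052) from 52.1 ± 2.77 to 43.1 ± 2.59 CPM, while Plxnb2, a receptor of class 4 semaphorins, rose by 0.45 (SE 0.1) from 98.3 ± 5.18 to 134 ± 8.59 CPM. Both kept their calls with the Rn45s covariate. Ntn4, a secreted netrin of basement membranes, rose by 0.61 (SE 0.15), and had 0.70 (adjusted p = 0.0509) with that covariate. Of 12 delta protocadherins and 22 ephrins and Eph receptors edgeR called none, with 0 and 1 below an unadjusted p of 0.05, and DESeq2 and limma-voom called none. The lowest p values belonged to Pcdh19 at -0.22 (adjusted p = 0.295 by edgeR, SE 0.13) and Ephb1 at 0.25 (adjusted p = 0.112 by edgeR, SE 0.098).

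Single transporter and channel genes fell, while their families were called in both directions. Slc30a3 (ZnT3), which loads zinc into glutamate vesicles of mossy fibres, stood at 67.7, 91.8, 61.6, 80.2 and 78.04 CPM in WT libraries 1 to 5 and 45.98, 47.04, 57.9, 41.5 and 55.5 CPM in PS19 libraries 1 to 5. All PS19 values were below all WT values, and the log2 fold change was -0.61 (adjusted p = 0.00772 by edgeR, SE 0.14). Slc17a7 (VGLUT1), which loads the glutamate itself, stood at 1451, 1317, 1514, 1696 and 1586 CPM in WT libraries 1 to 5 and 1226, 1241, 1199, 1134 and 1349 CPM in PS19 libraries 1 to 5. PS19 library 5 overlapped the WT range, and the log2 fold change was -0.30 (adjusted p = 0.0141 by edgeR, SE 0.075). Kcnh3, a voltage-gated potassium channel of forebrain neurons, fell by -0.53 (SE 0.12) from 119.9 ± 14.9 to 83.1 ± 8.62 CPM. Slc30a3 and Kcnh3 kept their calls under the pan-neuronal scaling and Slc17a7 did not (-0.19 (adjusted p = 0.058)). Under the Rn45s covariate Slc30a3 kept its call, and Kcnh3 had -0.55 (adjusted p = 0.0632) and Slc17a7 -0.23 (adjusted p = 0.168). The amino acid transporters Slc7a4 and Slc6a15 changed by -0.26 (SE 0.053) and -0.24 (SE 0.062). Scaling to the pan-neuronal genes left them at -0.15 (adjusted p = 0.0529) and -0.13 (adjusted p = 0.102), and Slc6a15 had -0.17 (adjusted p = 0.216) with the covariate.

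Among 23 zinc transporters 2 fell and 4 rose (26.1% called, against 10.8% of all genes). The count of falling members was 1 without any 1 of WT libraries 3 to 5 or without PS19 library 1 or 4. Slc39a1, an importer at the cell surface, rose by 0.39 (SE 0.073) and Slc39a12, an importer of astrocytes, by 0.35 (SE 0.078), where the Rn45s covariate left an adjusted p of 0.112. The count of rising members was 2 without WT library 3 or PS19 library 3. Of 51 amino acid and neurotransmitter transporters 4 fell and 4 rose (15.7% called, against 10.8% of all genes), or 8 rose without PS19 library 5. The risers included Slc7a7, a cationic amino acid exchanger, at 0.96 (SE 0.2), and the creatine carrier Slc6a8 at 0.24 (SE 0.053). Of 34 inward-rectifier, 2-pore and calcium-activated potassium channels 3 rose and 2 fell (14.7% called, against 10.8% of all genes). The fallers were Kcnj3 (GIRK1, a channel opened by G proteins) at -0.19 (SE 0.053) and Kcnma1 (the BK channel) at -0.25 (SE 0.068). No member fell by edgeR without PS19 library 3, with the Rn45s covariate or under the pan-neuronal scaling, 1 fell without WT library 1 or 4 or PS19 library 1 or 2, and 5 fell without PS19 library 5. The risers were Kcnj10 (Kir4.1, the potassium buffer of astrocytes) from 246 ± 31.1 to 386 ± 111 CPM, by 0.65 (SE 0.14), the 2-pore channel Kcnk6 by 0.82 (SE 0.17) and Kcnk13 (THIK-1, the 2-pore channel of microglia) by 0.47 (SE 0.11). In the Rn45s fit the adjusted p was 0.143 for Slc7a7, 0.15 for Slc6a8, 0.129 for Kcnj10, 0.0773 for Kcnk6 and 0.0704 for Kcnk13.

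Few members of 3 receptor lists passed the test. Of 33 aminergic and muscarinic receptors 1 passed (3.03%, against 10.8% of all genes). This was Chrm1, the main muscarinic receptor of pyramidal neurons, at -0.30 (SE 0.079) from 259 ± 27.6 to 211 ± 15.6 CPM. It was no longer called without WT library 4 (adjusted p of 0.065) or PS19 library 1 (adjusted p of 0.0519) or PS19 library 4 (adjusted p of 0.0557), and it had -0.23 (adjusted p = 0.205) with the Rn45s covariate. Of 38 neuropeptide receptors edgeR called none, with 4 lower and 1 higher at an unadjusted p below 0.05, and DESeq2 and limma-voom called 1 lower each. The lowest p was that of Npy1r, a receptor of neuropeptide Y, at -0.32 (adjusted p = 0.0526 by edgeR, SE 0.1). Of 16 nicotinic and glycine receptor subunits none was called by the 3 tools, with 1 higher and 1 lower below an unadjusted p of 0.05.

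G protein subunits were called in both directions. Of 32 G protein subunits 8 rose and 3 fell, a share called of 34.4%, against 10.8% of all genes. Their median log2 fold change was -0.0020. Gnai2, an inhibitory alpha subunit, rose by 0.36 (SE 0.063) from 202 ± 10.3 to 260.3 ± 27.1 CPM, and the gamma subunit Gng5 by 0.60 (SE 0.076) from 15.2 ± 0.630 to 23.02 ± 2.50 CPM. The beta subunit Gnb5, which pairs with RGS proteins in neurons, fell by -0.18 (SE 0.039) from 100.5 ± 2.88 to 88.6 ± 3.09 CPM, and the striatum- and forebrain-enriched gamma subunit Gng7 by -0.38 (SE 0.096) from 182 ± 21.95 to 139.7 ± 13.5 CPM. With the Rn45s covariate Gnai2, Gng5 and Gnb5 kept their calls and Gng7 had -0.36 (adjusted p = 0.111). Under the pan-neuronal scaling Gnb5 had -0.07 (adjusted p = 0.198) and Gng7 -0.27 (adjusted p = 0.0609). Rgs10, a regulator that speeds the switching-off of Gi proteins, rose by 0.68 (adjusted p = 0.000391 by edgeR, SE 0.1) from 16.5 ± 0.949 to 26.6 ± 4.88 CPM. Of 21 RGS proteins 2 rose and 2 fell (19% called, against 10.8% of all genes). The fallers were Rgs7 and Rgs13, no longer called in 6 and 7 of the 20 fits that left out 1 library.

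Second-messenger enzymes were also called in both directions. Itpka, the kinase that turns IP3 into IP4 in dendritic spines, stood at 197, 185, 202, 190.0 and 175 CPM in WT libraries 1 to 5 and 146, 131, 148, 149 and 149 CPM in PS19 libraries 1 to 5. The groups were apart, with the PS19 values in a narrow band except for library 2, and the log2 fold change was -0.39 (adjusted p = 0.00125 by edgeR, SE 0.069). Pde7b, a cAMP phosphodiesterase, fell by -0.50 (SE 0.11) from 25.98 ± 1.44 to 18.3 ± 1.32 CPM, and Dgki, a diacylglycerol kinase, by -0.29 (SE 0.074) from 43.9 ± 1.77 to 35.8 ± 3.59 CPM. Plcd4, Plcb2 and Inpp5d, the last a lipid phosphatase of blood cells and microglia that is a marker, rose by 0.65 (SE 0.11), 0.96 (SE 0.18) and 0.94 (SE 0.16). Of 62 phosphoinositide and diacylglycerol enzymes 9 rose and 5 fell (22.6% called, against 10.8% of all genes). The falling count was 3 without WT library 4 or PS19 library 1. Adcy7, the adenylyl cyclase of immune cells, rose by 0.86 (SE 0.18). The Rn45s covariate left Dgki at -0.23 (adjusted p = 0.167) and Adcy7 at 0.69 (adjusted p = 0.0863), and the pan-neuronal scaling left Dgki at -0.18 (adjusted p = 0.149).

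Calcium-binding proteins of neurons were mostly negative, with few calls. Of 59 CaM kinases, calcineurin subunits and neuronal calcium sensors 45 were negative, beside 8610 of all 16657 tested genes, with a median of -0.13. As lower 3 passed and as higher 1 (6.78% called, below the 10.8% of all genes). The lower count was 1 without any 1 of WT libraries 1, 3 and 4, PS19 libraries 1, 2 and 4 or PS19/C3aR KO library 3, and 5 without PS19 library 5. The higher call, Efcab14, ended without WT library 2 or 4 or any 1 of PS19 libraries 1, 3 and 4. Hpcal4, a calcium sensor of the visinin-like family, stood at 957, 954, 976, 1083 and 1042 CPM in WT libraries 1 to 5 and 702, 799.5, 769, 783 and 878 CPM in PS19 libraries 1 to 5. The groups did not overlap, and the log2 fold change was -0.35 (adjusted p = 0.00876 by edgeR, SE 0.082). It kept its call under the pan-neuronal scaling, and had -0.31 (adjusted p = 0.101) with the Rn45s covariate. Micu2, a gatekeeper of the mitochondrial calcium uniporter, rose by 0.28 (SE 0.044) from 20.2 ± 0.710 to 24.6 ± 0.995 CPM. Of 31 calcium pumps, exchangers and store channels 23 were negative, and 1 rose and 2 fell (9.68% called, near the 10.8% of all genes). The fallers were Slc8a2 and Slc24a4. Neither was called without any 1 of WT libraries 3 to 5 or PS19 libraries 1 to 4.

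Further falling genes came from signalling, matrix and trafficking. Smad3, which carries TGF-beta and activin signals to the nucleus, stood at 89.01, 94.9, 90.2, 109 and 98.5 CPM in WT libraries 1 to 5 and 58.8, 67.99, 81.9, 66.7 and 74.5 CPM in PS19 libraries 1 to 5. Its groups were apart, and the log2 fold change was -0.46 (adjusted p = 0.00092 by edgeR, SE 0.078). Ltbp4, which holds latent TGF-beta in the matrix, fell by -0.36 (SE 0.06) from 66.8 ± 1.57 to 52.2 ± 4.12 CPM. Fstl4, a secreted follistatin-like protein, fell by -0.42 (SE 0.094) from 16.6 ± 1.09 to 12.4 ± 1.37 CPM. Apc, a scaffold of Wnt signalling that also binds microtubule ends, fell by -0.35 (SE 0.056) from 416 ± 23.3 to 327 ± 17.2 CPM. Mpp2, a postsynaptic MAGUK scaffold, fell by -0.31 (SE 0.055) from 207 ± 11.01 to 167 ± 12.5 CPM, and Sprn (shadoo), a relative of the prion protein, by -0.30 (SE 0.053) from 208 ± 8.91 to 169 ± 12.9 CPM. Sgsm2, a GTPase-activating protein of Rab proteins, fell by -0.39 (SE 0.066), the Arf regulator Arfgap1 by -0.27 (SE 0.048) and the proton pump subunit Atp6v0e2 by -0.22 (SE 0.037). Of these 9 genes all but Fstl4 (-0.41 (adjusted p = 0.0644)) kept their calls with the Rn45s covariate, and all 9 did so under the pan-neuronal scaling.

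The deepest falls were in genes of low level. Among falling genes with a mean log2 CPM of at least 1, Arsj (an arylsulfatase) fell furthest. Arsj stood at 4.39, 5.17, 5.37, 4.12 and 3.98 CPM in WT libraries 1 to 5 and 2.28, 2.17, 2.13, 3.02 and 2.21 CPM in PS19 libraries 1 to 5. PS19 library 4 was the highest of its group and still below every WT library, and the log2 fold change was -0.96 (adjusted p = 0.00403 by edgeR, SE 0.2). Poc1a, a centriole protein, fell by -0.94 (SE 0.2) from 6.86 ± 1.70 to 3.58 ± 0.947 CPM, and the groups overlapped. The protease Htra4 fell by -0.91 (SE 0.22), the keratin Krt2 by -0.83 (SE 0.2), the kinase Nek10 by -0.78 (SE 0.18) and Plk5, a polo-like kinase without mitotic function that is read in granule neurons, by -0.78 (SE 0.19). Under the Rn45s covariate Arsj and Poc1a kept their calls, and Htra4, Krt2, Nek10 and Plk5 had adjusted p values of 0.0561, 0.102, 0.149 and 0.0661. In the libraries labelled C3aR KO, which carry no tau transgene, Arsj averaged 2.95 CPM, against 4.60 CPM in WT and 2.36 CPM in PS19.

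Matrix genes, those of heparan sulphate among them, were called in both directions. Of 47 laminins, nidogens and heparan sulphate genes 2 rose and 4 fell (12.8% called, against 10.8% of all genes). Beside the members named below, Sdc2 rose and Ndst3 and Gpc4 fell. Ndst3 was no longer called in 2 and Gpc4 in 7 of the 20 fits that left out 1 library. Ncan (neurocan), a lectican of the brain's matrix, fell by -0.23 (SE 0.058) from 268 ± 15.8 to 228 ± 15.2 CPM, and Extl1, an enzyme that lengthens heparan sulphate, by -0.33 (SE 0.067) from 90.6 ± 4.16 to 71.98 ± 2.88 CPM. Chst2, a sulphotransferase, rose by 0.37 (SE 0.078) from 188 ± 13.7 to 242 ± 18.2 CPM, and the cell-surface proteoglycan Sdc4 by 0.67 (SE 0.11) from 75.8 ± 9.25 to 121 ± 16.7 CPM. In the Rn45s fit Extl1, Chst2 and Sdc4 kept their calls and Ncan had -0.19 (adjusted p = 0.143); under the pan-neuronal scaling Ncan had -0.12 (adjusted p = 0.172). Of 36 genes listed as lecticans, link proteins and chondroitin sulphate enzymes 1 rose (Chst2) and 1 fell (Ncan). This was 5.56% called, below the 10.8% of all genes. The falling count was 3 without PS19 library 5 and 2 without WT library 5 or C3aR KO library 3, and 2 rose without WT library 3.

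Transcription and RNA families changed through few members. Chd3, a subunit of the NuRD chromatin remodeller in neurons, fell by -0.29 (SE 0.063) from 1202 ± 54.01 to 981 ± 82.1 CPM, with -0.20 (adjusted p = 0.117) under the Rn45s covariate and -0.18 (adjusted p = 0.0527) under the pan-neuronal scaling. Among 64 splicing regulators 4 rose and 4 fell (12.5% called, near the 10.8% of all genes). Mbnl1, Ptbp1 and Qk, of which Ptbp1 is the splicing repressor that neurons switch off and Qk the splicing factor of glia, rose by 0.28 (SE 0.049), 0.34 (SE 0.066) and 0.42 (SE 0.083), and all 3 kept their calls with the covariate. The falling side held Rbfox3 and Celf3, the latter at -0.26 (SE 0.068) no longer called without WT library 4 (adjusted p of 0.0623) or PS19 library 4 (adjusted p of 0.0561). The count of falling members was 2 without WT library 2 or PS19 library 1 and 1 without WT library 4. Of 368 Zfp zinc finger genes 242 were negative, beside 8610 of all 16657 tested genes, with a median of -0.04. In this family 10 fell and 5 rose (4.08% called, below the 10.8% of all genes). The falling count was 2 to 6 without any 1 of WT libraries 1 to 5, PS19 libraries 1 to 4 or PS19/C3aR KO library 4. Leaving out WT library 3, PS19 library 2 or PS19/C3aR KO library 4 gave a rising count of 3, and leaving out WT library 4, PS19 library 1 or PS19 library 3 gave 1. With the covariate edgeR called none of the family. Neat1, the long non-coding RNA that builds paraspeckles, rose from 132 ± 7.74 to 240.4 ± 41.7 CPM, by 0.87 (adjusted p = 0.0135 by edgeR, SE 0.22), or 0.91 (adjusted p = 0.0782) with the covariate.

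On the rising side, genes that carry signals behind immune receptors had the highest share called of the 63 families. Of 44 haematopoietic adaptors and kinases 30 rose (68.2%, against 7.5% of all genes), with a median of 0.94, and 21 of the 35 that are no markers. Lat2, an adaptor of Fc and TREM2 signalling, stood at 1.29, 1.44, 1.10, 1.91 and 1.69 CPM in WT libraries 1 to 5 and 4.92, 5.39, 5.54, 5.37 and 3.67 CPM in PS19 libraries 1 to 5. The groups did not overlap, PS19 library 5 was nearest to WT, and the log2 fold change was 1.74 (adjusted p = 9.13e-05 by edgeR, SE 0.2). Ptpn6 (SHP-1), a phosphatase that dampens such receptors, rose by 1.46 (SE 0.24) from 3.97 ± 0.436 to 10.9 ± 3.18 CPM. With the Rn45s covariate 14 of the 44 passed, Lat2 and Ptpn6 among them. Beside them, the summed microglial markers stood at 5878 to 6876 CPM in WT and 7709.9 to 11872 CPM in PS19, and the part of microglial content in this rise was not tested.

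Part of the surface receptors of leukocytes were called higher as well. Of 103 members of CD, lectin and related receptor families 40 rose (38.8%, against 7.5% of all genes) and 22 were negative, and of the 69 that are no markers 14 rose. Cytokine receptors of myeloid cells were among the named genes. Csf2rb, the shared beta chain of the IL-3, IL-5 and GM-CSF receptors, rose by 1.81 (SE 0.25) from 1.47 ± 0.173 to 5.15 ± 1.97 CPM, and Csf3r, the G-CSF receptor, by 1.65 (SE 0.26) from 8.03 ± 1.46 to 25.2 ± 9.01 CPM. The adhesion receptor Icam1 rose by 1.37 (SE 0.26) from 3.10 ± 1.07 to 8.02 ± 2.59 CPM. Gpr65, a proton-sensing receptor, rose by 2.09 (SE 0.38) from 0.199 ± 0.0595 to 0.846 ± 0.308 CPM. Of 39 genes, the TNF and TNF receptor superfamilies and the separate Tnfaip8 family listed with them, 8 rose and 1 fell, with a median of 0.26. The share called was 23.1%, against 10.8% of all genes. The faller, Tnfaip8l1, was no longer called in 15 of the 20 fits that left out 1 library, with adjusted p values by edgeR of up to 0.119 (without PS19 library 1). Tnfrsf1a (TNFR1) stood at 11.8, 9.07, 11.3, 9.72 and 10.2 CPM in WT libraries 1 to 5 and 25.6, 20.1, 26.9, 26.4 and 13.5 CPM in PS19 libraries 1 to 5. PS19 library 5 lay closest to WT without reaching it, and the log2 fold change was 1.11 (adjusted p = 0.00079 by edgeR, SE 0.18). Tnfrsf1b (TNFR2) rose by 0.93 (SE 0.16) from 5.07 ± 0.691 to 9.64 ± 1.98 CPM. These genes kept their calls with the Rn45s covariate, under which 2 of the 39 rose.

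**Figure D3:**
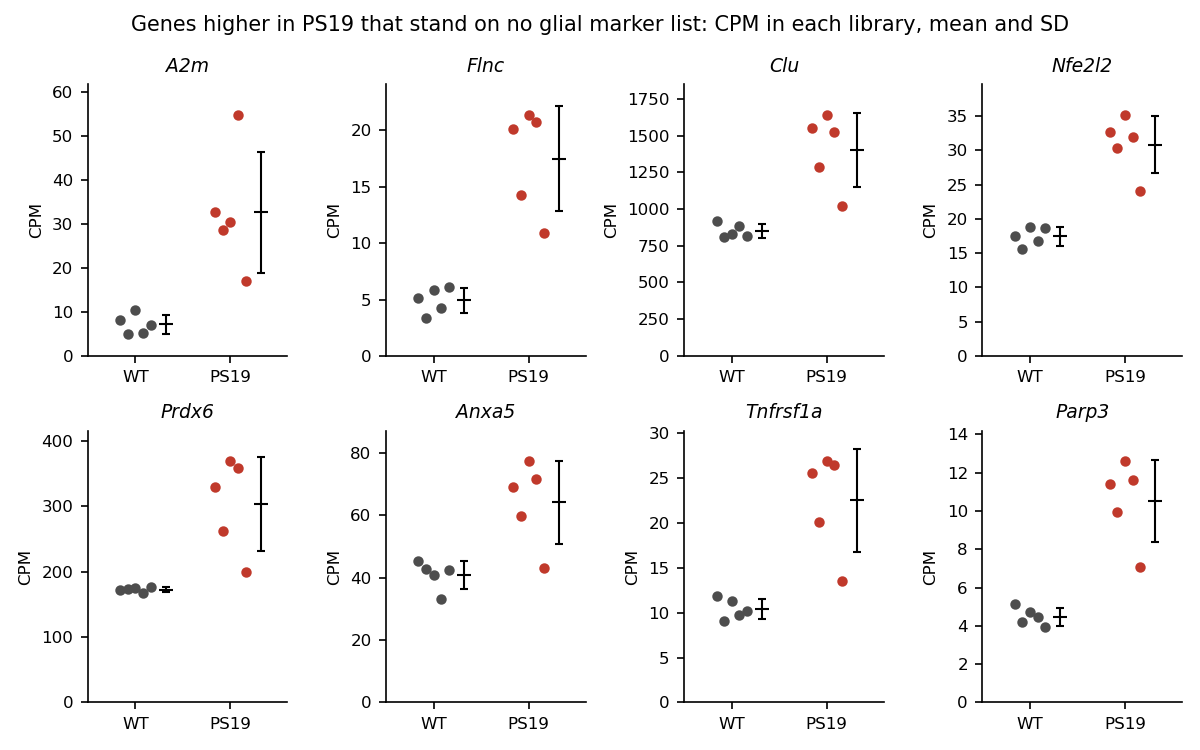
CPM of 8 genes called higher in PS19 minus WT that stand on no glial marker list, with 1 point per library (5 WT in grey, 5 PS19 in red) and bars for mean and SD; every axis starts at 0. PS19 library 5 is the lowest PS19 point in each panel, and for Anxa5 it lies within the WT range.

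Protease inhibitors and the coagulation system gave several of the steepest rises. A2m (alpha-2-macroglobulin), a broad protease trap made by astrocytes among others, had the highest fold of the genes outside the marker lists with a mean log2 CPM of at least 1. A2m stood at 8.16, 5.07, 10.3, 5.29 and 7.04 CPM in WT libraries 1 to 5 and 32.6, 28.6, 30.4, 54.8 and 17.01 CPM in PS19 libraries 1 to 5. The groups were apart, with PS19 library 5 lowest and PS19 library 4 highest of its group, and the log2 fold change was 2.19 (adjusted p = 0.00215 by edgeR, SE 0.42). Serpinf2, the inhibitor of plasmin, rose by 2.32 (adjusted p = 0.00154 by edgeR, SE 0.42) from 0.708 ± 0.277 to 3.55 ± 1.48 CPM, and had 2.06 (adjusted p = 0.0503) with the Rn45s covariate. Thbs4, an astrocytic matrix protein, rose by 1.31 (adjusted p = 0.00476 by edgeR, SE 0.28) from 13.1 ± 4.85 to 32.6 ± 9.76 CPM, with 0.95 (adjusted p = 0.104) under the covariate. Of 29 coagulation and plasminogen genes 7 rose (24.1%, against 7.5% of all genes), or 11 without PS19 library 5, with a median of 0.25. The chaperone-like Clu (clusterin), a lipid carrier and inhibitor of complement, stood at 919, 808, 833, 882 and 818 CPM in WT libraries 1 to 5 and 1553, 1287, 1643, 1523 and 1019 CPM in PS19 libraries 1 to 5. All PS19 libraries were higher, and the log2 fold change was 0.72 (adjusted p = 0.00024 by edgeR, SE 0.1).

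Part of the regulators of the actin cytoskeleton were called higher. Of 82 actin regulators 20 rose (7.5% of all genes did) and 1 fell, and 19 of the 80 that are no markers rose. The median over all 82 was 0.03, and most of the family did not pass. The faller, Cap2, was no longer called without WT library 3 or 4 or PS19 library 1 or 2. Flnc (filamin C), a cross-linker of actin, stood at 5.15, 3.36, 5.84, 4.25 and 6.08 CPM in WT libraries 1 to 5 and 20.1, 14.3, 21.4, 20.7 and 10.9 CPM in PS19 libraries 1 to 5. The groups did not overlap, and the log2 fold change was 1.83 (adjusted p = 0.000632 by edgeR, SE 0.29). Arpc1b, a subunit of the ARP2/3 complex, rose by 1.33 (SE 0.17) from 12.5 ± 1.67 to 31.5 ± 6.43 CPM, Capg, a capping protein of macrophages, by 1.46 (SE 0.23), and Myo1f, an unconventional myosin of leukocytes, by 1.77 (SE 0.25). Under the Rn45s covariate 10 actin regulators rose, and the 4 genes named here kept their calls.

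**Figure D4:**
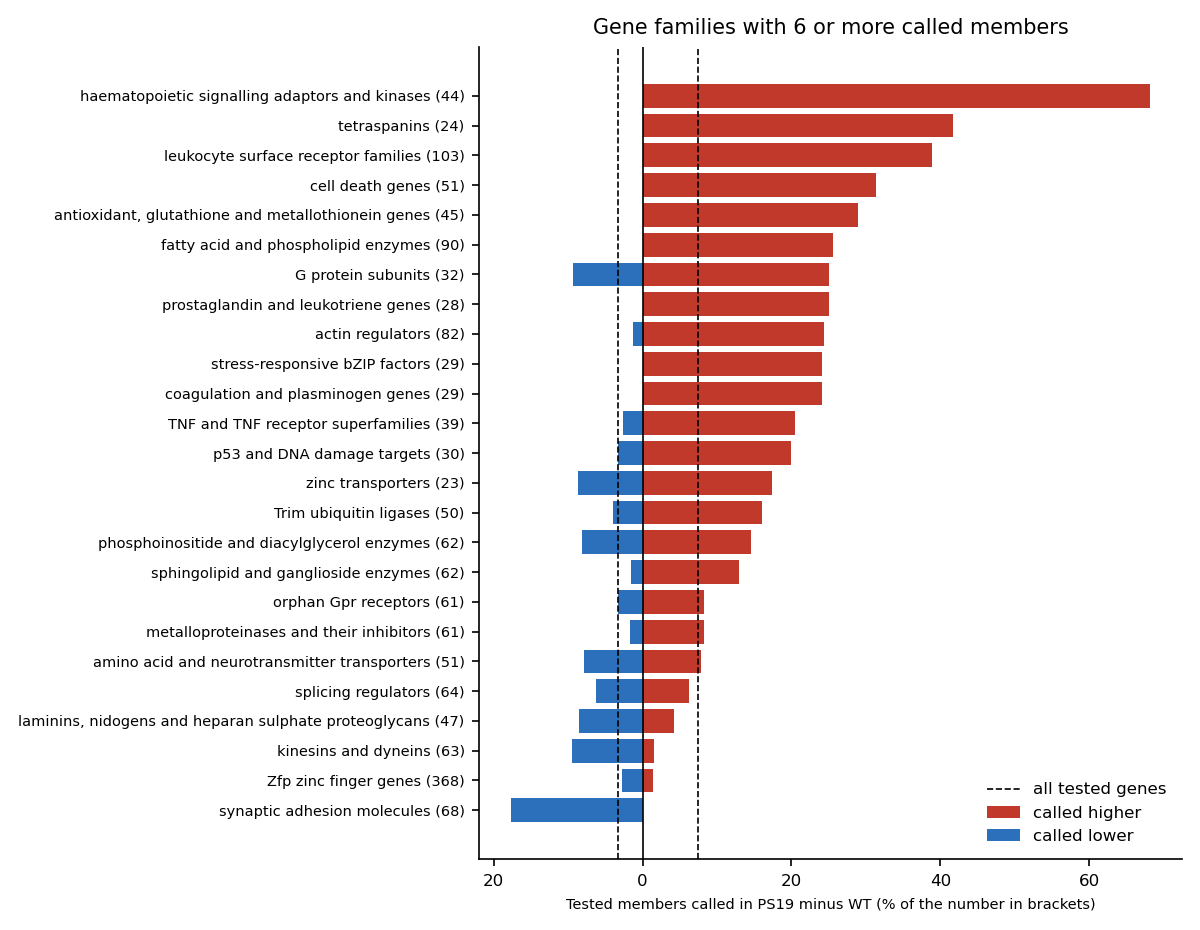
Share of tested members (%) called higher (red, to the right) or lower (blue, to the left) in PS19 minus WT for 25 of 63 families, each with 6 or more called members, with the number tested in brackets; dashed lines give 7.5% higher and 3.32% lower for all tested genes. Haematopoietic adaptors reach 68.2% on the right, and synaptic adhesion molecules 17.6% on the left.

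Part of the proteins that organise or repair membranes were called higher. Of 24 tetraspanins, which gather receptors and integrins into membrane domains, 10 rose (41.7%, against 7.5% of all genes), 6 of them among the 20 that are no markers, with a median of 0.30. Cd81 rose by 0.42 (SE 0.059) from 240.1 ± 8.00 to 320.3 ± 33.1 CPM, and the markers Cd9 and Cd63 by 1.35 (SE 0.18) and 0.97 (SE 0.14). Of 10 annexins, which bind membranes in the presence of calcium, 4 rose (40%, against 7.5% of all genes), with a median of 0.37. Anxa5 stood at 45.2, 42.6, 40.95, 33.2 and 42.4 CPM in WT libraries 1 to 5 and 68.9, 59.8, 77.3, 71.5 and 43.2 CPM in PS19 libraries 1 to 5. PS19 library 5 fell within the WT range, the other 4 lay above it, and the log2 fold change was 0.65 (adjusted p = 0.00151 by edgeR, SE 0.12). Anxa4 and Anxa3 rose by 0.86 (SE 0.15) and 0.99 (SE 0.21). The Rn45s covariate left Anxa5 at 0.54 (adjusted p = 0.0544) and Anxa3 at 0.72 (adjusted p = 0.111), and Anxa4, Cd81, Cd9 and Cd63 called.

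Genes of the oxidative stress response rose in part. Nfe2l2 (NRF2), the master factor of the antioxidant response, stood at 17.5, 15.6, 18.8, 16.8 and 18.7 CPM in WT libraries 1 to 5 and 32.6, 30.4, 35.2, 31.9 and 24.03 CPM in PS19 libraries 1 to 5. All 5 PS19 libraries were above WT, and the log2 fold change was 0.82 (adjusted p = 0.000347 by edgeR, SE 0.12). Prdx6, a peroxiredoxin with phospholipase activity that is abundant in astrocytes, stood at 172, 173, 175, 167 and 176 CPM in WT libraries 1 to 5 and 328, 262, 369, 358 and 199 CPM in PS19 libraries 1 to 5. The WT values were tight, every PS19 value was higher, and the log2 fold change was 0.81 (adjusted p = 0.000359 by edgeR, SE 0.12). Prdx1 rose by 0.29 (SE 0.051) and Bach1, a repressor at the same DNA elements as NRF2, by 0.28 (SE 0.062). These 4 genes kept their calls with the Rn45s covariate. Of 45 antioxidant, glutathione and metallothionein genes 13 rose (28.9%, against 7.5% of all genes), with a median of 0.13. The count was 7 without PS19 library 1, 3 or 4 and 4 with the covariate. Of 29 stress-responsive bZIP factors 7 rose (24.1%, against 7.5% of all genes), with a median of 0.19. Their count was 4 without WT library 3, 3 without WT library 2 or 4 or PS19 library 3, and 2 without PS19 library 4.

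Part of the fatty acid and phospholipid enzymes were called higher. Of 90 tested genes 23 rose (25.6%, against 7.5% of all genes), all of them outside the marker lists, with a median of 0.11, or 15 without WT library 4 and 8 with the Rn45s covariate. Hadhb, a subunit of the mitochondrial enzyme of fatty acid oxidation, rose by 0.33 (SE 0.052) from 66.7 ± 3.30 to 84.1 ± 6.36 CPM. Pla2g16, a phospholipase, rose by 0.34 (SE 0.051) from 38.4 ± 2.04 to 48.7 ± 1.40 CPM, and Pld4, a nuclease of the phospholipase D family in microglia, by 1.28 (SE 0.2) from 7.52 ± 0.662 to 18.3 ± 4.67 CPM. Sgpl1, which breaks down sphingosine 1-phosphate, rose by 0.51 (SE 0.084) from 38.7 ± 2.14 to 55.1 ± 6.63 CPM, while St6galnac6, a sialyltransferase of gangliosides, fell by -0.20 (SE 0.045) from 117 ± 3.99 to 102 ± 4.75 CPM and had -0.21 (adjusted p = 0.0544) with the covariate and -0.09 (adjusted p = 0.167) under the pan-neuronal scaling. Among 28 prostaglandin and leukotriene genes 7 rose (25%, against 7.5% of all genes), with a median of 0.23. Tbxas1 (thromboxane synthase) rose by 1.27 (SE 0.21) from 1.72 ± 0.164 to 4.15 ± 1.12 CPM. Ptgs1, whose promoter stretch is printed above, stood at 12.4, 12.8, 13.6, 12.7 and 13.5 CPM in WT libraries 1 to 5 and 20.9, 19.8, 20.9, 18.1 and 13.9 CPM in PS19 libraries 1 to 5. The groups did not overlap, the log2 fold change was 0.53 (adjusted p = 0.00448 by edgeR, SE 0.11), and with the covariate it was 0.51 (adjusted p = 0.0632). The prostaglandin count was 4 without WT library 2 or 4 or PS19 library 1 and 3 without PS19 library 4.

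Cell death and DNA damage genes rose in part. Of 51 cell death genes 16 rose (31.4%, against 7.5% of all genes), with a median of 0.27, or 4 with the Rn45s covariate. Among the 50 that are no markers 15 rose. Parp3, a poly(ADP-ribose) polymerase of DNA break repair, stood at 5.12, 4.19, 4.71, 4.44 and 3.92 CPM in WT libraries 1 to 5 and 11.4, 9.93, 12.6, 11.6 and 7.05 CPM in PS19 libraries 1 to 5. The groups were apart, and the log2 fold change was 1.23 (adjusted p = 0.000359 by edgeR, SE 0.18). Mcl1, an anti-apoptotic BCL2 relative, rose by 0.35 (SE 0.062) from 75.3 ± 6.78 to 96.3 ± 4.66 CPM. Bcl2a1b had 3, 7, 3, 4, 0 counts in WT libraries 1 to 5 and 34, 42, 54, 52, 17 counts in PS19 libraries 1 to 5. It rose from near the floor by 3.41 (adjusted p = 0.000856 by edgeR, SE 0.57), and its near-identical gene copies make the assignment of reads uncertain. Of 30 p53 and DNA damage targets 6 rose and 1 fell (23.3% called, against 10.8% of all genes). The rising count was 3 without WT library 3 or 4 or PS19 library 4 and 2 without PS19 library 3. The faller, Sesn1, was no longer called in 16 of the 20 fits that left out 1 library. Eda2r, a TNF family receptor induced by p53, rose by 1.33 (SE 0.25) from 0.562 ± 0.147 to 1.42 ± 0.310 CPM. Parp3, Mcl1, Bcl2a1b and Eda2r kept their calls with the covariate.

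Proliferation genes were called about as often as all genes. Of 45 cell cycle genes 38 were positive, beside 8047 of all 16657 tested genes, with a median of 0.12. In this list 5 rose (11.1%, against 7.5% of all genes), or 3 without PS19 library 1 and 9 without PS19 library 5. Top2a, the topoisomerase of dividing cells, stood at 0.613, 0.853, 1.16, 0.744 and 1.09 CPM in WT libraries 1 to 5 and 1.93, 1.88, 2.98, 2.75 and 1.93 CPM in PS19 libraries 1 to 5. The 2 groups did not overlap, and the log2 fold change was 1.36 (adjusted p = 0.00525 by edgeR, SE 0.29). Rrm2, the small subunit of ribonucleotide reductase, rose by 0.67 (SE 0.16) from 0.848 ± 0.170 to 1.36 ± 0.0652 CPM, and had 0.46 (adjusted p = 0.175) with the Rn45s covariate. Of 27 genes of immature neurons and neurogenesis 1 rose, the intermediate filament gene Nes, and 1 fell, Marcksl1 (7.41% called, below the 10.8% of all genes). Nes was no longer called in 13 and Marcksl1 in 14 of the 20 fits that left out 1 library, WT library 4 and PS19 library 3 among those for both, and 4 members rose and 2 fell without PS19 library 5. With the Rn45s covariate neither gene was called. Of 14 choroid plexus markers edgeR, DESeq2 and limma-voom called none and none passed an unadjusted p of 0.05, although all 14 were positive with a median of 0.94. Their sum varied from 182 to 3157 CPM among WT and from 306 to 6214 CPM among PS19 libraries.

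Called genes were also counted by position. In windows of 10 Mb with at least 20 tested genes, the highest share called was in chr3:140000001-150000000, with 15 of 38 genes (39.5%), 14 higher and 1 lower. The next was chr1:170000001-180000000 with 26 of 99 (26.3%). Of the 14 risers 9 are no markers. The window holds the guanylate-binding protein genes as well as Gng5, Bmpr1b, a BMP receptor, and Sh3glb1, a membrane-curving protein, which rose by 0.60 (SE 0.076), 0.43 (SE 0.086) and 0.28 (SE 0.044). Gbp2b (chr3:142594816-142619179) had 0, 3, 1, 0, 2 counts in WT libraries 1 to 5 and 124, 214, 456, 186, 78 counts in PS19 libraries 1 to 5. Its mean was 0.0309 CPM in WT, 5.43 CPM in PS19, 2.45 CPM in C3aR KO and 5.20 CPM in PS19/C3aR KO, so the libraries labelled C3aR KO, which carry no tau transgene, did not share the WT level. The window was picked for its count, so no test is given for it.

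The tau contrast could also be read in the background labelled C3aR KO, in libraries none of which enter PS19 minus WT as a group. In PS19/C3aR KO minus C3aR KO edgeR called 1 gene higher (0.006%), Prnp, and 0 lower, with 1617 genes below an unadjusted p of 0.05. DESeq2 called 125 higher and 33 lower there, and limma-voom 1 and 0. Of the 1250 genes that rose in PS19 minus WT, 1214 (97.12%) were also positive in this comparison, against 49.4% of all tested genes, with a median of 0.25 where PS19 minus WT had 0.56. Of the 553 that fell, 541 (97.83%) were also negative, against 50.6% of all genes, with a median of -0.11 beside -0.22. Both sets were picked by their values in PS19 minus WT, which makes their medians there larger. The medians therefore do not compare the size of the tau effect between the backgrounds. The test of the difference between both comparisons called 2 of 16657 genes (0.012%), C3ar1 and Gbp2b, with 691 below an unadjusted p of 0.05. For the other genes it shows neither that the effects differ nor that they are alike. Without PS19 library 5 edgeR called 92 genes higher and 13 lower in PS19/C3aR KO minus C3aR KO, without PS19/C3aR KO library 2 it called 47 and 21, without PS19/C3aR KO library 5 23 and 1, and without PS19/C3aR KO library 4 1 lower.

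Single genes had these values in the background labelled C3aR KO. Kif5a had -0.36 (adjusted p = 0.194, SE 0.1) in PS19/C3aR KO minus C3aR KO, Apc -0.29 (adjusted p = 0.0724, SE 0.056) and Smad3 -0.36 (adjusted p = 0.0942, SE 0.078). Arsj had -0.16 (adjusted p = 0.897, SE 0.2), Atp6v0e2 -0.08 (adjusted p = 0.465, SE 0.037) and Slc6a15 -0.05 (adjusted p = 0.909, SE 0.062). Among rising genes A2m had 1.52 (adjusted p = 0.181, SE 0.41) and Serpinf2 2.22 (adjusted p = 0.0724, SE 0.44). Thbs4 had -0.20 (adjusted p = 0.909, SE 0.28), with the opposite sign, and Chst2 0.00 (adjusted p = 1, SE 0.078). None of these 10 values passed the threshold. Since C3ar1 went against the knockout label, as given above, the background of this second comparison is known only by its label.

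**Figure D5:**
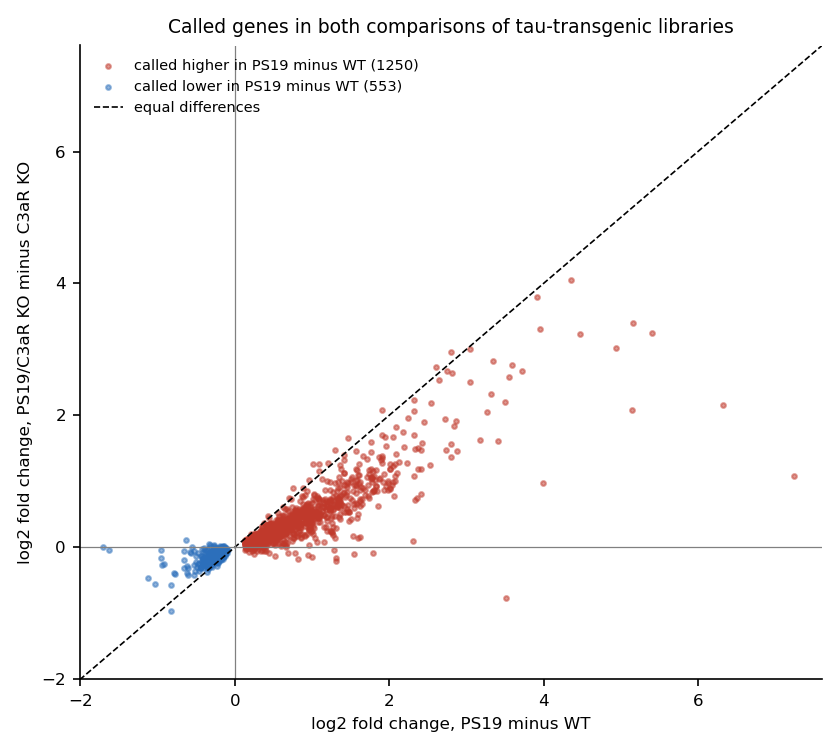
Log2 fold change in PS19 minus WT (horizontal) against that in PS19/C3aR KO minus C3aR KO (vertical) for the 1250 genes called higher (red) and the 553 called lower (blue) in the former; the dashed line marks equal values. Most red points lie above 0 and below the dashed line, with medians of 0.56 and 0.25. The genes were picked by their horizontal values, so a lower vertical value does not by itself show a smaller effect.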

How the data were processed

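Per the labels' protocols, hippocampal RNA was purified on RNeasy Mini columns, read as pairs of 76 nt, aligned to mm10 and counted over the union of exons of each gene with htseq-count. TopHat2 2.0.9 and DESeq2 are named per the submitters' processing notes. The deposited files hold raw counts for 24513 genes, not normalized by the authors. Annotation release and strand setting: not given in the sources used. Antisense or overlapping genes may share reads. The 5 summary lines of each file, which name no gene, entered neither library sizes nor tests. Pairs without an exon came to 18.5 to 25.4% of uniquely aligned pairs in the WT and PS19 libraries.

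Groups came from the sample titles. An edgeR 4.0.16 quasi-likelihood fit (R 4.3.3) took all 20 libraries in 4 groups with TMM normalization, after filterByExpr (minimum count 10, minimum total 15) had left 16657 genes, and p-values were adjusted by Benjamini-Hochberg over all of them. CPM use the TMM-normalized library size. The standard error is the log2 fold change over the square root of F, and its median was 0.097. Libraries of a group differed beyond sampling noise (chi-square per degree of freedom at least 9.00). Alternatives were DESeq2 1.42.0, limma-voom (limma 3.58.1), other scalings and filters, 2 covariates, a replicate block, the 10 libraries alone and leaving out each library.

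The members, 63 family lists, marker lists and the naming rule were chosen with earlier results of these data known. Named genes were Prnp and Mapt, the 15 called genes with the highest and lowest fold change and the 15 with the lowest p in each direction (mean log2 CPM at least 1, no predicted genes, no glial markers), up to 3 called members per family and direction with the lowest p, or the lowest p where none passed, and 6 genes of the densest 10 Mb window. The 4 genes Prox1, Calb1, C3ar1 and Rn45s served as checks. Gene positions come from RefSeq (GRCm38.p6), matched for 99.8% of tested genes. The fit was tested on simulated data. The results of 1 family are not reported here.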

Additional observations from a re-analysis of the deposited data

Results flagged for a closer look

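In a group of 5 libraries a value stood apart when its gap to the nearest library was large against the range of the group. Of 478 combinations of a named gene with the WT or PS19 group, 32 had such a library, where chance gives about 5%, or 1 in 20. PS19 library 5 was the one that stood apart in 7 of them. PS19 library 5 stood apart for Ptpn6 at 5.26 CPM (lowest, nearest 11.4), Icam1 at 3.58 CPM (lowest, nearest 8.25), Npy1r at 31.03 CPM (highest, nearest 24.5), Adcy7 at 10.7 CPM (lowest, nearest 15.5), Slc16a11 at 21.8 CPM (highest, nearest 18.5), Fzd9 at 6.41 CPM (lowest, nearest 9.54) and Sgpl1 at 43.6 CPM (lowest, nearest 56.6). PS19 library 1 stood apart for Chrnb4 at 3.60 CPM (highest, nearest 1.46). PS19 library 2 stood apart for Itpka at 131 CPM (lowest, nearest 146) and Carm1 at 56.3 CPM (lowest, nearest 57.8). PS19 library 3 stood apart for Dhrs3 at 26.9 CPM (highest, nearest 22.1) and Pou3f3 at 141 CPM (highest, nearest 119.9). PS19 library 4 stood apart for Arsj at 3.02 CPM (highest, nearest 2.28). WT library 1 stood apart for Pde7b at 23.4 CPM (lowest, nearest 26.3), Kcnj3 at 173 CPM (highest, nearest 158), Slc1a3 at 648 CPM (highest, nearest 609) and Adamtsl4 at 16.1 CPM (highest, nearest 14.3). WT library 2 stood apart for Pde1b at 164 CPM (highest, nearest 143), Pip4k2b at 192 CPM (lowest, nearest 206), Dock2 at 4.51 CPM (lowest, nearest 5.67) and Slc16a11 at 31.2 CPM (highest, nearest 22.6). WT library 3 stood apart for Ltbp4 at 64.1 CPM (lowest, nearest 66.9), Tcf7l1 at 6.64 CPM (highest, nearest 4.97), Anxa3 at 6.41 CPM (highest, nearest 4.97) and Trim47 at 5.01 CPM (highest, nearest 3.69). WT library 4 stood apart for Elp2 at 99.4 CPM (highest, nearest 97.5). WT library 5 stood apart for Trpc6 at 32.8 CPM (highest, nearest 22.6), Vps51 at 66.3 CPM (lowest, nearest 69.1), Kcnk6 at 5.58 CPM (highest, nearest 4.28), Rbpj at 38.6 CPM (highest, nearest 35.7), Mmp12 at 0 CPM (lowest, nearest 0.0244) and Fas at 2.42 CPM (highest, nearest 1.25). The mean log2 level of the 553 falling genes relative to the WT mean was also apart, at -0.15 in PS19 library 5 with the nearest PS19 library at -0.26, and at 0.0410 in WT library 4 with the nearest WT library at -0.00240.

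The tau effect on Gbp2b differed between the backgrounds by edgeR, with a log2 difference of -6.16 (adjusted p = 0.00188), the effect being 1.08 in PS19/C3aR KO minus C3aR KO and 7.25 in PS19 minus WT. The latter rests on 0 to 3 counts per WT library, so that its size is not a measured fold.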

How the results depend on the processing

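The direction of every named gene in PS19 minus WT held under every setting except for Psmb4, a proteasome subunit, at 0.013 when libraries were scaled to the pan-neuronal genes. The number of rising genes, 1250, was 2629 under that scaling and 374 with Rn45s as a covariate. The number of falling genes, 553, was 83 and 57 there, and 176 with the total gene count. Leaving out 1 library gave 891 to 1515 rising and 269 to 725 falling genes. In PS19/C3aR KO minus C3aR KO, DESeq2 gave 125 higher and 33 lower and leaving out 1 library gave 1 to 92 and 0 to 21 (2 higher without PS19 library 1, 1 lower without PS19/C3aR KO library 4 or 5). For the difference between both comparisons limma-voom gave 1 lower and leaving out 1 library 2 to 5. Of 232 named genes called in PS19 minus WT, 163 kept their call without any 1 library. With the Rn45s covariate 133 of the 239 named genes lost a call, and 62 did so under the pan-neuronal scaling. The median standard error over all tested genes was 0.097. A change of 1 standard error is too small for a call. At that standard error, changes well above 0.097 could also not be shown with these libraries at this depth. The cause of these shifts was not tested.

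Titles give the numbers 1 to 5 in each group. The deviations of same-numbered WT and PS19 libraries had correlations of -0.20 to 0.26, and 1 of 5 WT libraries was closest to its own number. In C3aR KO with PS19/C3aR KO the correlations were 0.42, 0.50, 0.24, -0.10 and -0.10 for numbers 1 to 5, with 1 of 5 closest to its own number. Since not every pair was over 0.1 in either comparison, the numbers were not treated as pairs. A replicate block gave 1403 higher and 702 lower genes in PS19 minus WT, and 21 higher and 1 lower in PS19/C3aR KO minus C3aR KO.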
